A study of Mus musculus with 27 samples.

Results

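The interleukin-1 family was followed through 7 genes of RAW264.7 cells, an established mouse macrophage line. They were taken by gene symbol from the deposited count table, where each matched 1 of 55483 genes. The cells received DMSO, or LPS at 1 µg/ml, or LPS with TM7nox at 10 µM, for 6 h. LPS is a bacterial cell wall lipopolysaccharide that activates macrophages. TM7nox is a tanshinone mimic, a class of small molecules made to disturb the binding of RNA by HuR, which is the product of Elavl1. The LPS group without the compound also received DMSO, and the LPS+TM7nox label names no DMSO. All groups were of this single line, with no genetic change stated. Each treatment was profiled in 4 total RNA libraries, in 4 libraries of RNA recovered with an anti-HuR antibody (ribonucleoprotein immunoprecipitation, RIP) and in 1 library of RNA recovered with control IgG. Nothing in the labels says that the replicates were separate cultures, so p-values measure the spread between these samples.

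Interleukin-1α and interleukin-1β, encoded by Il1a and Il1b, bind the same receptor, which signals only after it has recruited the accessory chain encoded by Il1rap. Il1rn encodes the receptor antagonist, which occupies that receptor without a signal. Il18 and Il33 encode related cytokines with receptors of their own, and the receptor of interleukin-33 also uses the Il1rap chain. Il18bp encodes a secreted protein that binds interleukin-18 and blocks it. Macrophages make little of the interleukin-1 agonists at rest and make them quickly after LPS. HuR binds U-rich and AU-rich stretches, most often in 3′ UTRs, and many cytokine mRNAs carry the AU-rich pentamer.

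The total RNA libraries held 2728534 to 28285856 counts, the RIP libraries 19816312 to 41449233 and the IgG libraries 8873091 to 24513902. The shallowest was replicate 1 of DMSO RNA. Levels are given as CPM (counts in a library scaled to 1000000) on 1 common scale for all 27 libraries. Of 8 macrophage markers, 7 had a mean above 1 CPM in every RNA group and Mertk lay below. Lists of 5 markers each of fibroblasts, epithelium and lymphocytes summed to at most 0.385 CPM in any RNA library. The endothelial list summed to 1.61 to 7.42 CPM over all RNA libraries, with Vwf above 1 CPM. The neutrophil list moved with LPS: DMSO libraries held 0 to 0.129 CPM of it in sum, LPS libraries 1.56 to 3.51 CPM and LPS+TM7nox libraries 0.158 to 0.477 CPM. In LPS its member above 1 CPM was S100a8, while S100a9, Ly6g and Elane were at 0. The part of these markers in the results was not tested.

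Il1a, Il1b and Il1rn lie on mouse chromosome 2 (GRCm39). Il1a spans chr2:129140291-129152098 and Il1b spans chr2:129206490-129213059, both on the minus strand. Il1rn spans chr2:24226865-24241506 on the plus strand. Il18 is on chromosome 9, Il33 on chromosome 19, Il1rap on chromosome 16 and Il18bp on chromosome 7. Their canonical 3′ UTRs, from GENCODE, ranged from 459 bases (Il1b) to 2676 bases (Il1rap).

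Windows of the 3′ UTRs of Il1rn, Il1b and Il1a are shown because HuR is known to bind such stretches and recovery with anti-HuR was highest for Il1rn. Each is the stretch of 30 bases with the most matches to a motif. Capitals mark the AU-rich pentamer ATTTA in the AU-rich windows and the U-rich heptamer TTTNTTT in the U-rich windows, searched on the transcript strand alone, with overlapping matches counted. In the order shown they are chr2:24239957-24239986 on the plus strand, and chr2:129206722-129206751, chr2:129142028-129142057 and chr2:129140880-129140909 on the minus strand.
Il1rn, U-rich: TTTTTTTGTTTTTGTTTtttccattgttct
Il1b, AU-rich: cttacctATTTATTTAtgtATTTAttgatt
Il1a, AU-rich: ttttatctatgtATTTAtaaatatATTTAt
Il1a, U-rich: catagctTTTCTTTCTTTTTTTTTTTTTTT
The Il1rn window held 23 T in 30 bases and no AU-rich pentamer, and 18.9% of 3′ UTRs of similar length (within 20%) had a window with as many T. The U-rich window of Il1a also held 23 T, as did 23.9% of 3′ UTRs of its length. Il1b carried 3 pentamers in its window and Il1a 2.

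Over the whole 3′ UTR, Il1rn had 0 pentamers and 8 heptamers in 1864 bases. Of 3′ UTRs of similar length, 89.5% had a pentamer and 31.5% had at least as many heptamers. Il1b had 4 pentamers and 1 heptamer in 459 bases, and 4.1% of 3′ UTRs of similar length had at least as many pentamers. The heptamer of Il1b overlaps its pentamers. Il1a had 5 pentamers and 16 heptamers in 2340 bases, most of the latter in 1 run of T. Il33 had 5 pentamers and 4 heptamers, Il18 1 and 2, Il1rap 8 and 3, and Il18bp 3 and 3. Over all 20373 3′ UTRs, 68.7% had the pentamer and 68.4% the heptamer. The AU-rich nonamer TTATTTATT was in 8.5% of them and in 0 of the 7 genes. These matches describe the letters and are not measured binding sites. The longest annotated 3′ UTR of Il1rap, 6903 bases, had 17 pentamers and 13 heptamers.

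**Figure D1:**
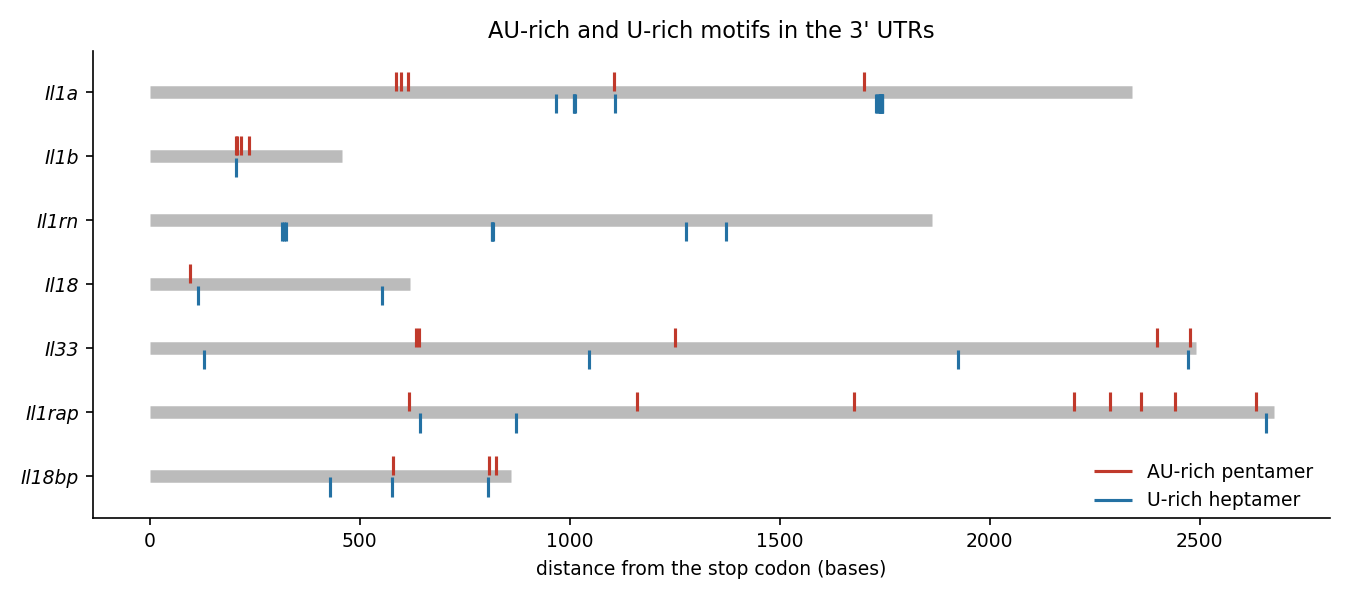
Positions of the AU-rich pentamer (red, above) and the U-rich heptamer (blue, below) along the canonical 3′ UTR of each gene, in bases from the stop codon (grey bars show the length). Il1rn carries 8 heptamers and 0 pentamers, and Il1b carries 4 pentamers close together in 459 bases.

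LPS raised the RNA of every member of the family. All 7 members were called higher in LPS than in DMSO (edgeR quasi-likelihood test, adjusted p, or FDR, under 0.05), against 20.2% of the 12369 genes tested. The median log2 fold change of the members was 4.94, and that of all genes tested was -0.04. No LPS library overlapped a DMSO library for any of the 7, but how many of all genes showed the same was not counted. The changes are relative to the typical gene. With scaling to total counts, an alternative chosen after seeing the data, the median of all genes moved to -0.32 and 27.7% of the called genes were higher in place of 48.2%. The 7 members were called higher on that scale too. In bulk RNA, a change in the number of expressing cells and a change in RNA per cell cannot be told apart.

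The agonist Il1b was near the detection limit in DMSO RNA, at 0.424, 0.438, 1.93 and 0.0329 CPM in replicates 1 to 4. In LPS the same replicates stood at 882, 1583, 1001 and 1079 CPM. The DMSO values rest on 80 counts in all, 60 of them in replicate 3. Its log2 fold change was 10.51 (SE 0.688, FDR 3.93e-08), the second largest of 12369 genes, and 12.02 without RNA DMSO replicate 3.

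Il1a moved in the same way. It lay between 0.0772 and 0.611 CPM in DMSO on 26 counts and at 224, 526, 349 and 304 CPM in LPS. Its change was 10.41 (SE 0.539, FDR 5.12e-09), and 11.76 without RNA DMSO replicate 3.

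Il33, an alarmin of the family, had 0, 3, 4 and 0 counts in the DMSO RNA libraries. The counts of 0 allow shares of up to 1.10e-04% and 1.41e-05% of all counts in replicates 1 and 4, taking 3 counts as the limit. In LPS its replicates stood at 13.2, 55.9, 52.9 and 55.5 CPM. The log2 fold change of 9.27 (SE 1.03, FDR 6.85e-06) therefore rests on 7 counts in DMSO, and it was 9.94 without RNA DMSO replicate 3.

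Il1rn had the highest level of the family at rest. Its DMSO libraries held 155, 170, 96.1 and 41.3 CPM and its LPS libraries 2964, 3936, 3764 and 3866 CPM. The log2 fold change was 4.94 (SE 0.392, FDR 2.53e-07), and 5.80 with replicates 3 and 4 alone. Per kilobase of transcript, it led the family in RNA of every treatment. In DMSO the next gene was Il18, at 1.83 ± 0.465 CPM per kilobase against 46.8 ± 23.9 for Il1rn (SD, n = 4). In LPS Il1rn reached 1468 ± 182, Il1b 838 ± 228 and Il1a 103 ± 37.3 CPM per kilobase, and their libraries did not overlap. Il18, Il33, Il1rap and Il18bp followed in that order, and each overlapped the next.

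Il18, at 2.47 ± 0.630 CPM in DMSO, reached 24.4 ± 3.44 CPM in LPS (SD, n = 4), a log2 fold change of 3.35 (SE 0.197, FDR 1.46e-08). For Il18bp, which encodes its binding protein, DMSO libraries averaged 0.392 ± 0.155 CPM and LPS libraries 5.82 ± 1.27 CPM, and the log2 fold change was 3.86 (SE 0.364, FDR 1.35e-06). The accessory receptor chain Il1rap had the smallest change of the family. It averaged 7.63 ± 2.17 CPM in DMSO and 19.7 ± 1.02 CPM in LPS, with a log2 fold change of 1.39 (SE 0.184, FDR 3.39e-05).

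**Figure D2:**
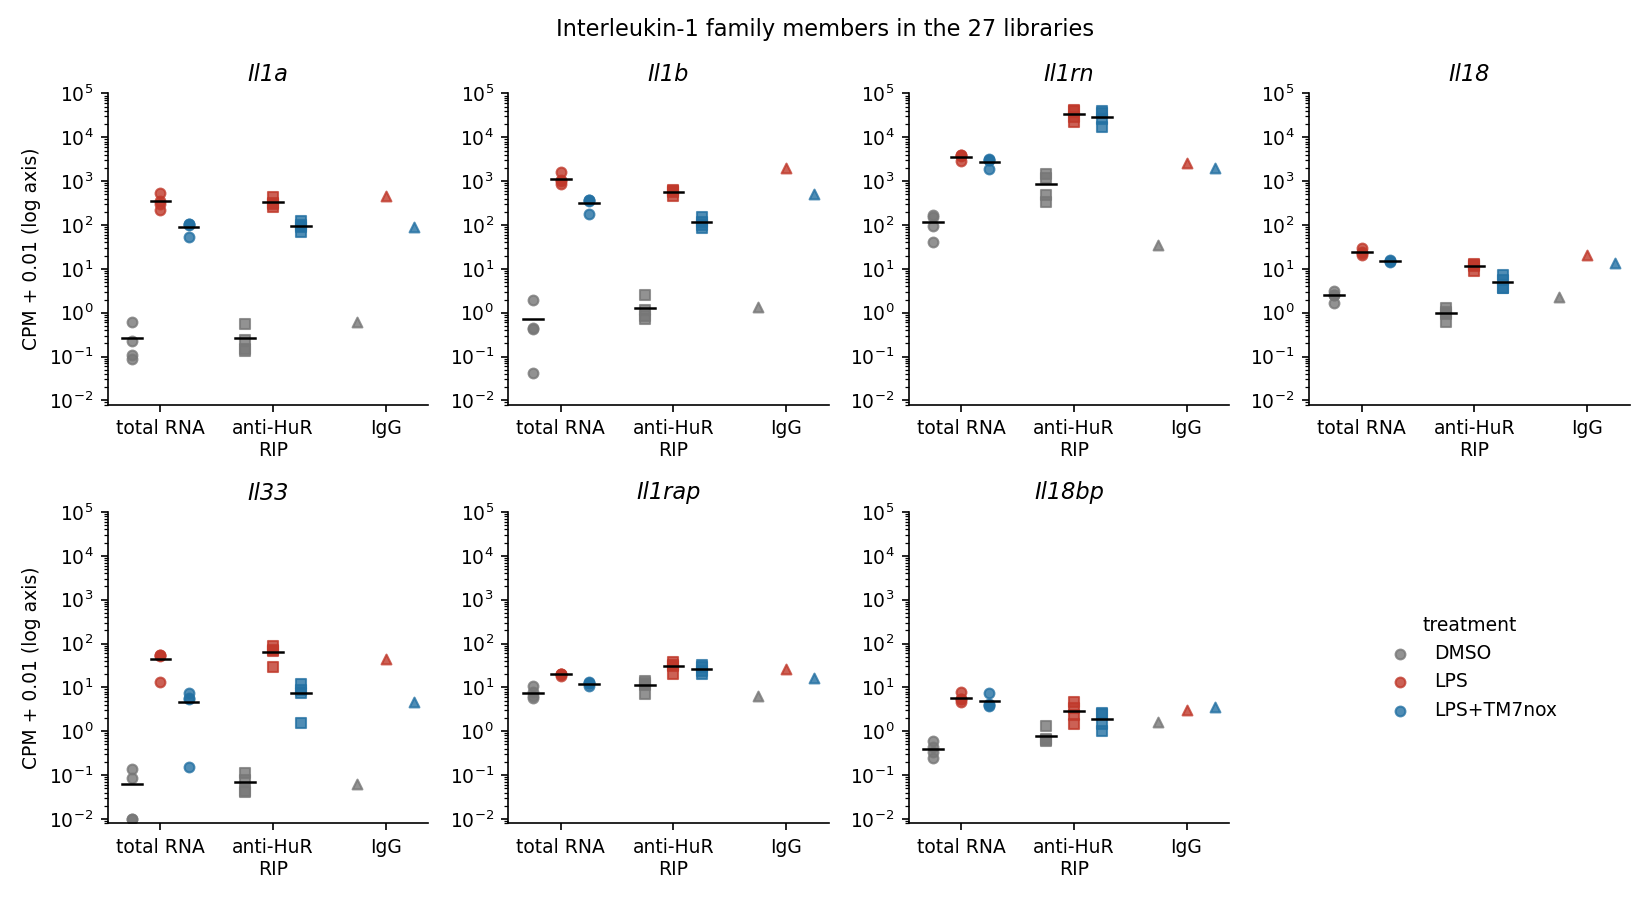
CPM + 0.01 of each gene in every library (log axis), by assay and treatment, where points are libraries and black lines are means of 4 libraries. Il1a, Il1b and Il33 were below 3 CPM in every DMSO library, whereas Il1rn reached 22615 to 43103 CPM in the LPS RIP libraries.

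With TM7nox, the 4 agonists and Il1rap fell in the RNA of LPS-treated cells, and the 2 inhibitors did not pass the test. In all, 5 of 7 members were lower in LPS+TM7nox than in LPS and 0 were higher, where 6.40% of all genes tested were lower. The members' median was -0.69 and that of all genes tested 0.00. With the replicate number as a block, 3091 genes were called in either direction in place of 1704, and the same 5 members were called. The 5 were Il1a, Il1b, Il18, Il33 and Il1rap, and none of their libraries overlapped between the treatments. The share of all genes without such overlap was not counted. With replicates 1 and 2 alone, Il1a and Il1b were called, and with replicates 3 and 4 alone the 5 were called again.

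Il33 had the largest decrease. Its LPS+TM7nox libraries held 0.146, 5.29, 7.25 and 5.82 CPM, and the log2 fold change against LPS was -3.24 (SE 0.633, FDR 0.00360). Replicate 1, at 3 counts, was the lowest, and replicate 1 was also the lowest library of Il33 in LPS RNA and in the LPS and LPS+TM7nox RIP libraries. Without RNA LPS+TM7nox replicate 1 the change was -2.85, and with replicates 1 and 2 alone it was -3.63 (FDR 0.166).

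Il1a fell to 53.0, 99.5, 106 and 107 CPM, a change of -1.94 (SE 0.332, FDR 0.00146). Il1b fell to 180, 380, 368 and 348 CPM, a change of -1.83 (SE 0.448, FDR 0.0144). Its highest LPS+TM7nox library lay below its lowest LPS library. The Il1b call was near the threshold by DESeq2 (FDR 0.0498) and without RNA LPS replicate 2 (FDR 0.0484).

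Il18 stood at 14.2, 15.2, 15.9 and 15.3 CPM in LPS+TM7nox against 21.1 to 29.2 CPM in LPS, a change of -0.69 (SE 0.169, FDR 0.0147). Il1rap stood at 13.1, 10.5, 12.7 and 12.7 CPM against 18.3 to 20.7 CPM, a change of -0.69 (SE 0.176, FDR 0.0178). Il1rap was not called without RNA LPS replicate 2 (FDR 0.0510) or without RNA LPS+TM7nox replicate 2 (FDR 0.0532).

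The 2 inhibitors of the family did not pass the test. Il1rn stood at 1913, 3075, 3256 and 2976 CPM in LPS+TM7nox, a difference of -0.37 from LPS with a 95% interval of -1.08 to 0.34 (FDR 0.542). Il18bp stood at 7.39, 3.67, 4.05 and 4.25 CPM, a difference of -0.27 with an interval of -0.89 to 0.35 (FDR 0.625). For both genes the libraries of the treatments overlapped, although each LPS+TM7nox library lay below the LPS library of its number. The replicate block did not call them either (Il1rn -0.37, FDR 0.430, and Il18bp -0.29, FDR 0.370). Whether the response of an inhibitor differed from that of an agonist was not tested.

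Compared with DMSO, all 7 members were higher in LPS+TM7nox RNA, where 23.7% of all genes tested were higher. With scaling to total counts the median of all genes moved from -0.01 to -0.33, and 29.0% of called genes were higher in place of 2926 of 5850. On that scale Il1rap was not called (0.37, FDR 0.170). The changes ran from 0.70 for Il1rap (SE 0.183, FDR 0.00600) to 8.68 for Il1b (SE 0.651, FDR 1.49e-07). Il1rap was the gene whose libraries overlapped, with 10.6 CPM in DMSO replicate 1 and 10.5 CPM in LPS+TM7nox replicate 2. Il33 was higher by 6.04 (SE 1.08, FDR 3.67e-04) but not with replicates 1 and 2 alone (FDR 0.0773), which also lost the call of Il1rap (0.53, FDR 0.339). Il1a was higher by 8.47, Il1rn by 4.57, Il18bp by 3.60 and Il18 by 2.66. When DMSO replicate 3 was left out, Il1b was higher by 10.19, Il1a by 9.82 and Il33 by 6.70. This comparison shares its libraries with the preceding ones.

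In RIP libraries, LPS also raised every member. All 7 were higher in LPS than in DMSO, where 23.5% of the 13614 genes tested were higher. With scaling to total counts the median of all genes moved from 0.00 to -0.63 and 16.8% of called genes were higher in place of 52.6%, and the 7 members were called higher as well. Il1a ranked highest of all genes tested, with a change of 10.38 (SE 0.407, FDR 4.21e-11), from 4, 7, 4 and 11 counts to 4519 to 8341 counts per library. Il33 came next with 10.04 (SE 0.699, FDR 1.57e-08), on 6 counts in DMSO. Il1b rose by 8.80 (SE 0.396, FDR 1.70e-10), to 466, 641, 604 and 574 CPM. Il1rn rose by 5.24 (SE 0.484, FDR 3.50e-07; 6.25 with replicates 3 and 4 alone), Il18 by 3.53, Il18bp by 1.88 and Il1rap by 1.39. Il18bp was not called with replicates 1 and 2 alone (FDR 0.0635).

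Il1rn had the highest level of the family in LPS RIP per kilobase, at 13622 ± 3948 CPM per kilobase, and Il1b followed at 421 ± 55.6. By library, Il1rn stood at 1187, 1477, 479 and 338 CPM in DMSO RIP and at 28484, 40603, 43103 and 22615 CPM in LPS RIP. In LPS it took 2.02% ± 0.427 of all RIP counts (SD, n = 4), against 0.442% ± 0.0321 of all RNA counts.

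TM7nox lowered 4 of 7 members in RIP and raised 0, where 7.61% of all genes tested were lower. With the replicate block, 4577 genes were called in either direction in place of 2212, and the same 4 members were called. These were Il33 at -3.15 (SE 0.438, FDR 2.08e-04), Il1b at -2.37 (SE 0.290, FDR 7.16e-05), Il1a at -1.82 (SE 0.262, FDR 2.74e-04) and Il18 at -1.21 (SE 0.249, FDR 0.00382). In LPS+TM7nox RIP, Il1b stood at 83.4, 120, 153 and 101 CPM, and Il33 at 1.53, 7.52, 11.7 and 8.92 CPM. None of the 4 genes overlapped its LPS libraries, and the share of all genes without overlap was not counted here either. Il18 was not called with replicates 3 and 4 alone (FDR 0.0546). Il1rn, at 17056, 38870, 36072 and 26583 CPM, differed from LPS by -0.23 with an interval of -1.09 to 0.63 (FDR 0.747). Il1rap differed by -0.27 (interval -0.74 to 0.20, FDR 0.442) and Il18bp by -0.67 (interval -1.51 to 0.18, FDR 0.276). Il18bp was lower than in LPS in 4 of 4 same-numbered RIP pairs and Il1rn in 3 of 4, and with the block their FDRs were 0.155 and 0.668. The 7 members were all higher in LPS+TM7nox RIP than in DMSO RIP, where 25.1% of genes tested were higher. Scaling to total counts moved that median from 0.00 to -0.63 and the share of called genes that were higher from 52.1% to 18.2%. The smallest of these changes was 1.12 for Il1rap (FDR 7.03e-04), followed by 1.21 for Il18bp (FDR 0.0253), 2.32 for Il18, 5.01 for Il1rn, 6.43 for Il1b, 6.89 for Il33 and 8.56 for Il1a. The call of Il18bp was lost without RIP DMSO replicate 1, 3 or 4 and without RIP LPS+TM7nox replicate 1 or 3, with FDRs of 0.0569 to 0.0835, and with upper quartile scaling (FDR 0.0733) or replicates 1 and 2 alone (FDR 0.208). When libraries were scaled to their total counts, Il1rap was not called against DMSO in RNA (0.37, FDR 0.170) or RIP (0.49, FDR 0.0820), nor was Il18bp in RIP (0.61, FDR 0.254).

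**Figure D3:**
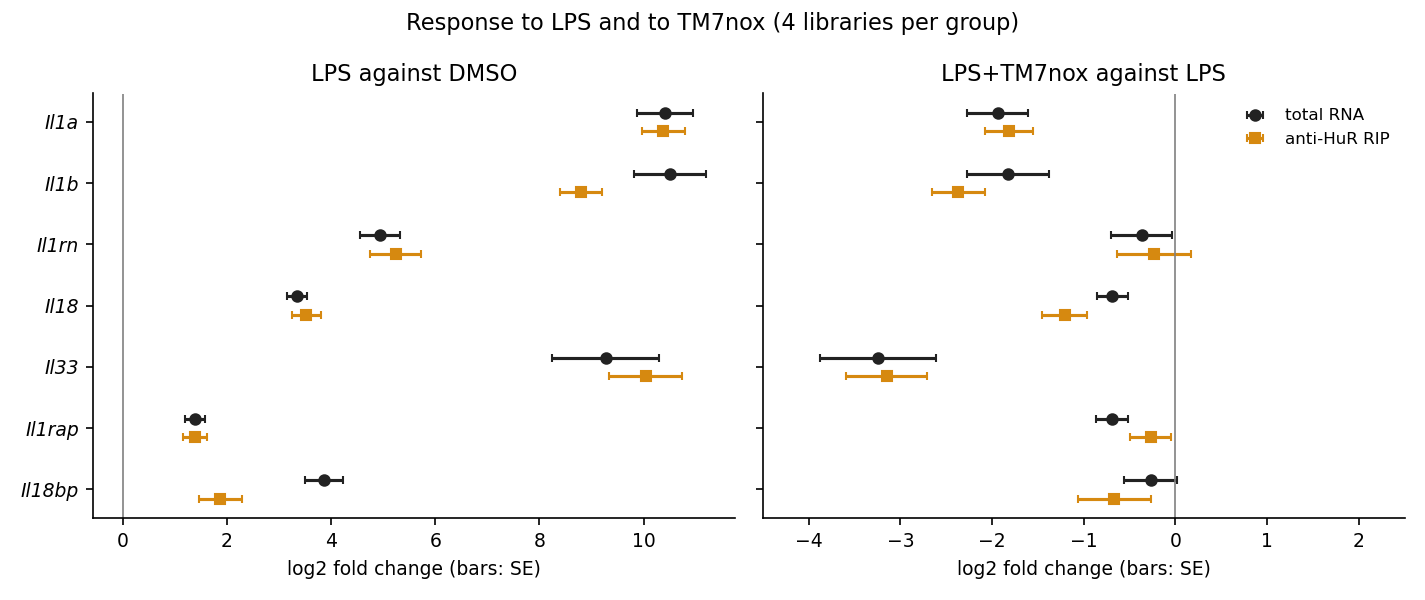
Log2 fold changes with their SE for LPS against DMSO (left) and LPS+TM7nox against LPS (right) in total RNA (black circles) and anti-HuR RIP (orange squares), from 4 libraries per group. Il33, Il1a and Il1b show the largest decreases with TM7nox in both assays, and Il1rn lies at -0.37 and -0.23.

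Among the members, recovery with anti-HuR relative to the level in total RNA (RIP over RNA) was highest for the antagonist in all 3 treatments. Il1rn was higher in RIP by a log2 of 3.06 in DMSO (SE 0.429, FDR 7.22e-07), 3.21 in LPS (SE 0.431, FDR 5.07e-07) and 3.36 in LPS+TM7nox (SE 0.433, FDR 2.09e-07). Same-numbered libraries of RIP and RNA differed for Il1rn by 2.32 to 3.66 in all 12 pairs. Of 14311 genes tested, Il1rn ranked 1746 in DMSO, 1322 in LPS and 1532 in LPS+TM7nox.

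RIP over RNA was called in either direction for 4 of 7 members in DMSO, where 70.4% of all genes tested were called. It was called for 5 of 7 in LPS (63.7%) and for 5 of 7 in LPS+TM7nox (69.9%). These shares lie near those of all genes, so being called did not set the members apart. The values are relative to the typical gene: scaling to total counts moved the median of all genes from 0.04 to -0.72 in DMSO, from -0.06 to -1.06 in LPS and from -0.09 to -1.07 in LPS+TM7nox. Of the called genes, 34.7%, 25.8% and 29.6% were then higher in RIP, in place of 52.6%, 51.7% and 50.3%. On that scale Il1rn was higher in RIP by 2.23, 2.20 and 2.36, and Il18 stood at -1.93, -2.09 and -2.55. In LPS and LPS+TM7nox that scale gave -1.99 and -2.50 for Il1b, and -1.98 and -2.32 for Il18bp.

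The agonist Il1b was lower in RIP than in RNA, with a log2 ratio of -0.99 in LPS (SE 0.405, FDR 0.0347) and -1.53 in LPS+TM7nox (SE 0.411, FDR 0.00191). The LPS call was lost by DESeq2 (FDR 0.209), with RLE scaling (FDR 0.0836), with replicates 3 and 4 alone (FDR 0.154) and without RNA LPS replicate 2 or 4 or RIP LPS replicate 1, 3 or 4. All 8 same-numbered pairs in LPS and LPS+TM7nox were negative, from -1.79 to -0.73. As a share of all counts, Il1b made up 0.138% ± 0.0354 of LPS RNA and 0.0347% ± 0.00344 of LPS RIP (SD, n = 4). In DMSO its value was 0.80 (SE 0.548, FDR 0.193), and 2.28 (FDR 0.00114) without RNA DMSO replicate 3.

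Il18 was lower in RIP in every treatment, with log2 ratios of -1.17 in DMSO (SE 0.246, FDR 1.67e-04), -1.08 in LPS (SE 0.207, FDR 7.02e-05) and -1.59 in LPS+TM7nox (SE 0.215, FDR 4.16e-07). The DMSO call was lost with replicates 1 and 2 alone (-0.85, FDR 0.0910). Il18bp was higher in RIP in DMSO (1.09, SE 0.425, FDR 0.0248) and lower in LPS (-0.97, SE 0.343, FDR 0.0163) and LPS+TM7nox (-1.33, SE 0.353, FDR 0.00170). The DMSO value rests on 42 RNA and 89 RIP counts, and its call was lost without RIP DMSO replicate 2 (FDR 0.154) or RNA DMSO replicate 3 or 4, with scaling to total counts (0.38, FDR 0.468) and with no filter on low counts (0.88, FDR 0.0973). The LPS call was lost without RIP LPS replicate 2 (FDR 0.0791) or 4 (FDR 0.0525). With replicates 1 and 2 alone Il18bp was called in none of the 3 treatments (FDR 0.0589 to 0.326).

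Il1rap was higher in RIP by 0.74 in DMSO (SE 0.204, FDR 0.00236), 0.62 in LPS (SE 0.196, FDR 0.00762) and 1.06 in LPS+TM7nox (SE 0.199, FDR 4.51e-05), but scaling to total counts turned the DMSO and LPS values to -0.06 and -0.39 and brought the third to 0.07 (FDR 0.794). Its DMSO call was also lost with no filter on low counts (FDR 0.0759), and its DMSO and LPS calls with replicates 3 and 4 alone (FDR 0.0549 and 0.251). Il1a showed no difference that passed the test, with values of 0.00, -0.09 and 0.03 (FDR 0.816 to 0.999), but scaling to total counts gave -0.71, -1.09 and -0.94 and called Il1a lower in RIP in LPS (FDR 0.00232) and LPS+TM7nox (FDR 0.00719). Il33 was not called, at -0.21 in DMSO (SE 1.81, FDR 0.925), 0.50 in LPS (SE 0.544, FDR 0.434) and 0.58 in LPS+TM7nox (SE 0.581, FDR 0.377). With the replicate number as a block, Il33 was called in LPS (0.65, FDR 0.0296) and in LPS+TM7nox (0.67, FDR 0.0440). Scaling to total counts turned the Il33 values of LPS and LPS+TM7nox to -0.47 and -0.37.

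Whether treatment changed RIP over RNA was tested as an interaction. For LPS against DMSO, 0 of 7 members were called by edgeR, where 0.0419% of all genes tested were. Il18bp (-2.06, SE 0.546, FDR 0.264) and Il1b (-1.80, SE 0.681, FDR 0.573) had an unadjusted p under 0.05. The Il1b value ran from -3.28 without RNA DMSO replicate 3 to -1.31 without RIP DMSO replicate 4, and was called in 0 of 16 such fits (lowest FDR 0.0857). The other members lay between -0.12 for Il1rap and 0.71 for Il33, with Il1a at -0.09, Il18 at 0.09 and Il1rn at 0.15 (FDR 0.962 to 0.991). DESeq2 called 1 member, Il18bp (FDR 0.0449), and the fit with no filter on low counts called 1, Il1b (FDR 0.00230). For LPS+TM7nox against LPS, 0 of 7 were called by edgeR and by DESeq2, 0 had an unadjusted p under 0.05, and 0.00699% of all genes tested were called. The 95% intervals were -1.70 to 0.64 for Il1b, -0.81 to 1.06 for Il1a and -1.54 to 1.71 for Il33, and for Il1rn the change was 0.15 (SE 0.559). For Il18 the change was -0.51 (interval -1.12 to 0.09, FDR 0.871), for Il1rap 0.44 (interval -0.14 to 1.01) and for Il18bp -0.36 (interval -1.37 to 0.64).

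IgG libraries show the make-up of the RNA recovered with control IgG. Libraries were made from 7 ng each, so they give shares and not the amount of background. A value lower with anti-HuR than with IgG is therefore a smaller share, and recovery below background was not measured. Over the 12 RIP and 3 IgG libraries, with treatment as a term, 4 of 7 members were called, where 57.9% of the 18282 genes tested were. Il1rn was higher with anti-HuR than with IgG by 4.08 (SE 0.478, FDR 1.36e-07). Il1rn took 0.334% of the counts of the LPS IgG library (95% Wilson interval 0.331 to 0.336), and 1.49 to 2.39% in the LPS RIP libraries. In DMSO it stood at 34.3 CPM in IgG against 338 to 1477 CPM in RIP, and in LPS+TM7nox at 2012 against 17056 to 38870 CPM.

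Il1b was lower with anti-HuR than with IgG, with a log2 ratio of -1.51 (SE 0.282, FDR 7.32e-05). The LPS IgG library held 1966 CPM of Il1b, above each of the LPS RIP libraries (466 to 641 CPM) and the LPS RNA libraries (882 to 1583 CPM). It took 0.251% of that library's counts (95% Wilson interval 0.249 to 0.253). The LPS+TM7nox IgG library held 502 CPM, also above the RIP libraries of that treatment (83.4 to 153 CPM). In DMSO, the IgG value of 1.33 CPM lay within the RIP range of 0.711 to 2.51 CPM.

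Il18 was also lower with anti-HuR than with IgG, at -1.11 (SE 0.206, FDR 6.48e-05). Il1rap was higher by 0.59 (SE 0.216, FDR 0.0224), which was lost without the DMSO or the LPS+TM7nox IgG library (FDR 0.149 and 0.123) and with scaling to total counts it was called in the other direction (-0.51, FDR 0.0312). Il1a (-0.40, SE 0.261, FDR 0.203) and Il18bp (-0.62, SE 0.332, FDR 0.117) were not called, but scaling to total counts gave -1.50 and -1.71 (FDR 3.70e-06 and 1.47e-04). That scaling moved the median of all genes from -0.05 to -1.13, and 23.9% of called genes were then higher with anti-HuR in place of 51.5%. Il33 was not called (0.57, SE 0.416, FDR 0.251), was called with the replicate block (1.09, FDR 3.97e-04), and turned to -0.55 with scaling to total counts. Each treatment had 1 IgG library, numbered as replicate 3, and IgG was compared over all treatments together.

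**Figure D4:**
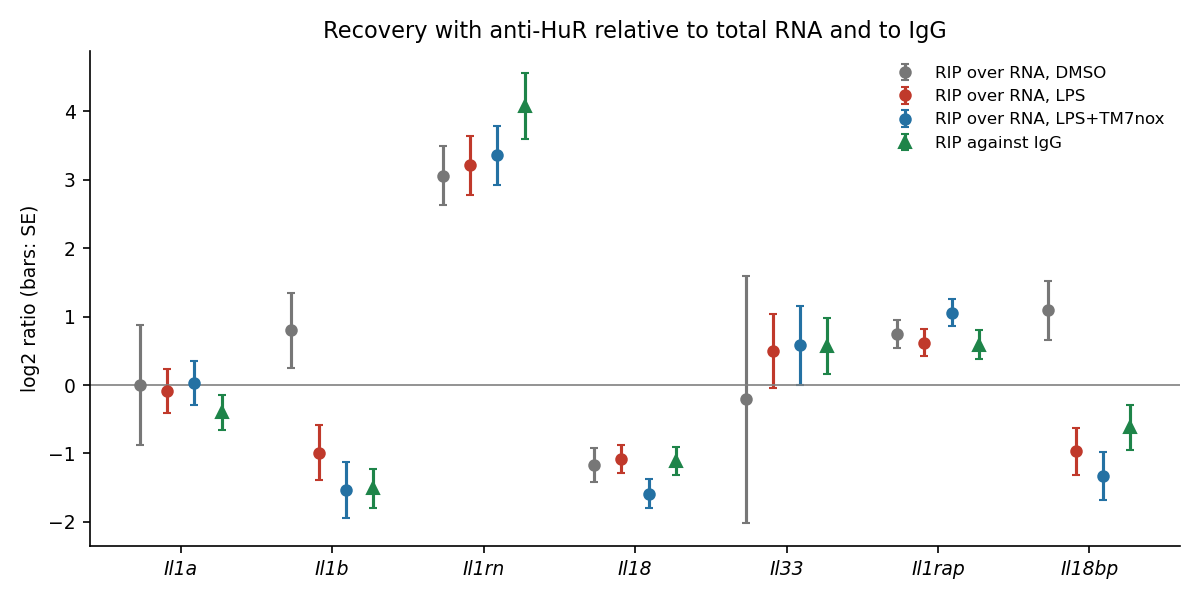
Log2 ratio with its SE of anti-HuR RIP over total RNA in each treatment (circles) and of RIP against IgG over all treatments (green triangles), relative to the typical gene. Il1rn lies between 3.06 and 4.08, and Il18 lies below 0 in all 4 comparisons.

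The balance of antagonist and agonist can be read within a library as the ratio of Il1rn to Il1b counts per base of transcript, which does not depend on library scaling. In RNA it was 201, 213, 27.3 and 688 in DMSO, where Il1b had 1 to 60 counts. It was 1.84, 1.36, 2.06 and 1.96 in LPS and 5.83, 4.44, 4.85 and 4.69 in LPS+TM7nox. The 3 treatments did not overlap in RNA. In RIP it was 915, 979, 228 and 73.8 in DMSO, on 21 to 50 counts of Il1b, 33.5, 34.7, 39.1 and 21.6 in LPS and 112, 177, 129 and 145 in LPS+TM7nox, where the DMSO and LPS+TM7nox libraries overlapped. Each RIP library of LPS and LPS+TM7nox was above every RNA library of those treatments. In the IgG libraries it was 14.2 in DMSO, 0.729 in LPS and 2.20 in LPS+TM7nox. The ratio combines members and was not tested.

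**Figure D5:**
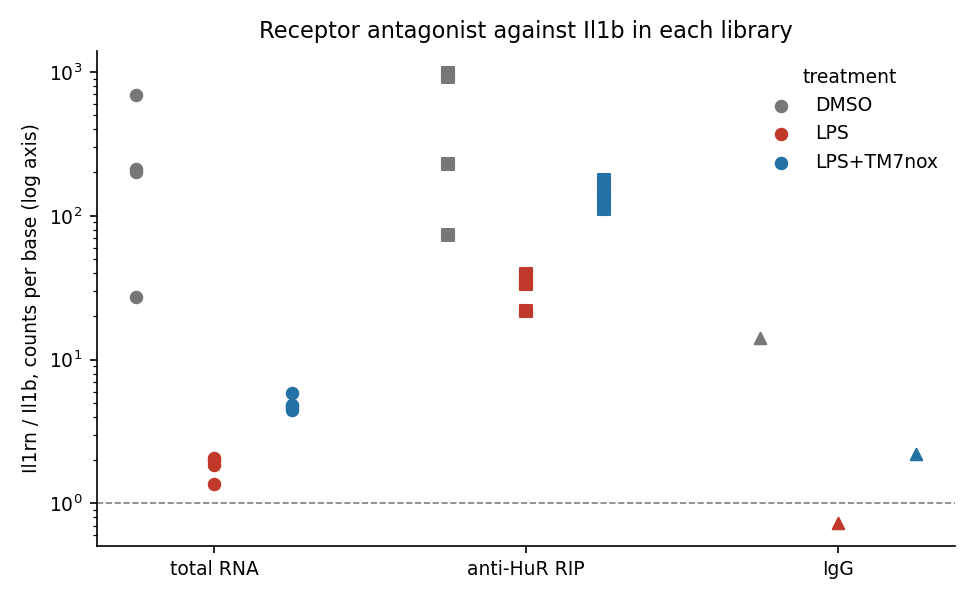
Ratio of Il1rn to Il1b, counts per base of canonical transcript, in each library (log axis), by assay and treatment, with a dashed line at 1. In RNA the LPS libraries lie between 1.36 and 2.06 and the LPS+TM7nox libraries between 4.44 and 5.83.

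Antisense and overlapping genes could share reads with some members, since the strand setting of the counting is not given in the sources used here. Il1bos shares 95 exonic bases with Il1b on the other strand and held 317 counts in the 4 LPS RNA libraries, against 133449 for Il1b. Gm14023 shares 477 with Il1a and held 128, against 41453 for Il1a. Il18bp shares 446 with Numa1 and Il1rap 1425 with Gm20319, also on the other strand. Counts of Numa1 and Gm20319 were not examined, so the values of Il18bp and Il1rap are less certain. Il33 shares 159 with Gm41832 on the other strand, a gene absent from the count table.

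Of 34 other genes of interleukin-1 signalling and processing, 30 were matched in the table by symbol and 23 were tested in RNA. Il1r1, which encodes the signalling receptor of interleukin-1, had 2 counts in the DMSO, 4 in the LPS and 0 in the LPS+TM7nox RNA libraries together. Il18r1 had 4, 3 and 0. Il1rl1, which encodes the interleukin-33 receptor, stood at 20.7 to 38.6 CPM in the DMSO libraries, 23.3 to 46.3 CPM in the LPS libraries and 9.95 to 19.2 CPM in the LPS+TM7nox libraries. Il1rl1 fell with TM7nox, with a log2 fold change of -1.11 in RNA (SE 0.283, FDR 0.0174) and -0.77 in RIP (FDR 0.0268), and it was higher in RIP than in RNA by 3.33 in LPS (FDR 3.06e-11).

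In LPS RNA, 13 of the 23 were higher than in DMSO and 3 lower, where 20.2% of all genes tested were higher and 21.7% lower. The median was 0.54 against -0.04 for all genes tested. Those higher included Casp4, an inflammatory caspase (3.86, FDR 1.68e-08), Peli1, a ubiquitin ligase that acts on interleukin-1 receptor kinases (3.05, FDR 2.06e-08), Nlrp3, the inflammasome sensor (3.01, FDR 8.25e-09), Irak2 (2.28, FDR 6.55e-07) and Casp1, which cleaves the precursors of interleukin-1β and interleukin-18 (2.08, FDR 2.89e-07). Tab1 (-1.05), Irak1 (-0.51) and Irak4 (-0.38), of the receptor kinase pathway, were lower, with FDRs of 0.0118, 0.00554 and 0.0430.

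With TM7nox, 7 of the 23 were lower than in LPS RNA and 1 higher, where 6.40% of all genes tested were lower and 7.37% higher. The median was -0.06. Those lower included Il18rap, a chain of the interleukin-18 receptor (-1.37, FDR 4.29e-04), Irak3, a kinase that dampens the pathway (-1.03, FDR 0.00178), the adaptor Myd88 (-0.61, FDR 0.0296), Nlrp3 (-0.52, FDR 0.0345) and the pore-forming Gsdmd (-0.51, FDR 0.0174). Tollip was higher (0.45, FDR 0.0283). In RIP, 5 of the 23 were lower and 1 higher, against 7.61% and 8.64% of all genes tested.

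Likeness to a member was measured as Pearson r of log2 CPM over the 12 RNA libraries, among 8253 genes with a mean of at least 5 CPM. These libraries fall into 3 treatments, and r carries the differences between them. Most like Il1b were Il1a (0.994), Trim30d (0.993) and Cxcl11 (0.992). Cxcl11, a chemokine gene, stood at 0.378, 114 and 31.8 CPM in DMSO, LPS and LPS+TM7nox. Most like Il1rn were Tor1aip1 (0.996), Ifi204 (0.996) and Ifi202b (0.995). Ifi204, an interferon-inducible gene, stood at 15.6, 406 and 313 CPM. Most like Il33 were Stat5a (0.988), Synj1 (0.976) and Actr3 (0.975). Stat5a stood at 8.24, 37.0 and 19.1 CPM.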

How the data were processed

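Libraries of total RNA and of RNA recovered with anti-HuR or IgG were made from 7 ng each (SMART-Seq Stranded chemistry), per the labels' protocols. The authors deposited raw counts, whole numbers of reads per gene and library for 55483 genes in 27 libraries, without normalization. The submitters' processing notes name the build GRCm39 and the tools FastQC 0.11.9, STAR, HTSeq and DESeq2. For the annotation release and the strand setting, the sources used here give nothing.

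Two-sided quasi-likelihood F tests were run on these counts (edgeR 4.0.16, R 4.3.3) with TMM scaling, filterByExpr at a minimum count of 10 and Benjamini-Hochberg adjustment over all genes tested. A gene was called at an FDR under 0.05. The 12 RNA, the 12 RIP and the 24 RNA and RIP libraries were each fitted together, and the 12 RIP with the 3 IgG libraries with treatment as a covariate. SE and 95% intervals are from the F statistic. The edgeR fit was tested on simulated counts for LPS against DMSO in the 12 RNA libraries alone. That simulation had a single spread for all genes and no replicate effect, and the other comparisons were not simulated. Alternatives were RLE and upper quartile scaling, DESeq2 1.42.0, no filter, mitochondrial genes left out before scaling, the replicate block, replicates 1 and 2 or 3 and 4 alone (for IgG, replicate 3 alone), only the 8 libraries of the groups compared, and each library left out. Scaling to total counts was added after the data were seen.

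Same-numbered libraries deviated together: every correlation of their deviations was over 0.1 (0.16 to 0.54) in all comparisons with more than 1 replicate pair, except that for the change of RIP over RNA with LPS 22 of 24 were. The numbers were therefore taken to pair the samples, but the main tests used group means without a block. Their SEs, FDRs and intervals thus leave the pairing out, and the replicate block was run as an alternative. No pair of replicates agreed within sampling noise (chi-square per gene 38.0 to 213 over 36 pairs). Symbols matched GENCODE M39 by Ensembl number, which also gave positions and sequences on GRCm39. Wilson intervals and floors cover counting error only, since no molecular identifiers are stated.

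The members and lists were chosen with earlier results of these data known. All 7 members are named in each comparison. Of other pathway genes, those called with a mean of at least 5 CPM, at most 3 per list and direction by size of change, could be named. For Il1b, Il1rn and Il33 the 3 most alike genes are named.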

Additional observations from a re-analysis of the deposited data

Results flagged for a closer look

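Of 42 groups of 4 libraries tested (7 genes in 6 groups), 6 held a library set apart from the other 3 by Dixon's criterion, which chance alone meets in about 1 of 20 groups. In LPS+TM7nox RNA, replicate 1 was apart for 3 genes. Il1a stood at 53.0 CPM there against 99.5 to 107 CPM in the others, and Il1b at 180 against 348 to 380 CPM. Il18bp stood at 7.39 CPM against 3.67 to 4.25 CPM, so this library was low for Il1a and Il1b and high for the binding protein. The antagonist Il1rn was also lowest in it, at 1913 CPM. Replicate 1 was likewise lowest for Il1a and Il1b and highest for Il18bp in LPS RNA and in LPS+TM7nox RIP. In LPS RIP this held for Il1b and Il18bp but not for Il1a. In LPS RNA, replicate 1 of Il33 stood at 13.2 CPM against 52.9 to 55.9 CPM. In LPS+TM7nox RNA, replicate 2 of Il1rap stood at 10.5 CPM against 12.7 to 13.1 CPM. In DMSO RIP, replicate 2 of Il18bp stood at 1.29 CPM against 0.577 to 0.653 CPM. Without RNA LPS+TM7nox replicate 1 the change of Il33 with TM7nox was -2.85, and Il1a and Il1b were still called in that comparison.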

How the results depend on the processing

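The 7 members were called in LPS against DMSO, in RNA and RIP, under each scaling alternative, DESeq2, no filter, the replicate block and each left-out library. Over all member fold changes and alternatives, 1466 kept direction and side of the threshold, 46 lost their call and 13 gained one, and 59 changed sign, 3 of which also lost or gained a call. The cause was not tested.

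Counts of called members that moved by over 1.5 times were those for LPS+TM7nox against LPS in RNA (2 with replicates 1 and 2 alone, in place of 5), for RIP over RNA in DMSO (2 with scaling to total counts, with no filter and with replicates 1 and 2 alone, in place of 4), for RIP over RNA in LPS (3 with replicates 3 and 4 alone, and 3 to 5 with 1 library left out, in place of 5, with the 3 reached without RIP LPS replicate 4) and for the change of RIP over RNA with LPS (1 by DESeq2 and 1 with no filter, in place of 0). Other counts moved less, such as that for RIP against IgG (6 with scaling to total counts and 5 with no filter, the replicate block or replicate 3 alone, in place of 4) and that for LPS+TM7nox against DMSO (5 of 7 in RNA with replicates 1 and 2 alone and in RIP with scaling to total counts). Il33 did not pass the filter, and gave no value, for LPS+TM7nox against DMSO in RNA when only the 8 libraries compared were fitted. Fits on 2 replicates have fewer samples.

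Scaling to total counts, chosen after seeing the data, turned RIP over RNA of Il1a to -0.71 in DMSO and -0.94 in LPS+TM7nox, of Il1rap to -0.06 in DMSO and -0.39 in LPS, and of Il33 to -0.47 in LPS and -0.37 in LPS+TM7nox. It turned RIP against IgG of Il33 to -0.55 and of Il1rap to -0.51, and the change of RIP over RNA with LPS of Il1rn to -0.04 and of Il18 to -0.16. Against IgG it gave 2.95 for Il1rn, -2.65 for Il1b and -2.22 for Il18. In RIP, it lowered the 7 changes from DMSO in both treatments, for LPS to between 0.76 (Il1rap) and 9.75 (Il1a).

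With replicates 1 and 2 alone, changes from DMSO in RNA were 11.93 for Il1a and 11.49 for Il1b in LPS, and 9.64, 9.36 and 5.31 for Il1a, Il1b and Il33 in LPS+TM7nox. In RIP they were 9.44 for Il1b in LPS, and 6.22 for Il33 in LPS+TM7nox. Those of Il1rn in LPS+TM7nox were 3.94 in RNA and 4.32 in RIP, and 5.53 and 6.17 with replicates 3 and 4 alone. In LPS, Il1rn in RIP was 4.65 with replicates 1 and 2 alone, and Il1a in RNA was 9.82 with replicates 3 and 4 alone.

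For Il1a, RIP over RNA in DMSO changed sign with no filter (-0.19), with mitochondrial genes left out (-0.09) and with replicates 3 and 4 alone (-0.23), and ran from -0.54 to 1.32 with 1 library left out. In LPS it changed sign with RLE scaling (0.11) and DESeq2 (0.11) and ran from -0.28 to 0.17. In LPS+TM7nox it changed sign with upper quartile scaling (-0.04), no filter (-0.11), mitochondrial genes left out (-0.01) and replicates 3 and 4 alone (-0.01), and ran from -0.19 to 0.23. Il33 in DMSO turned to 0.05 by DESeq2 and to 0.05 with the replicate block, and ran from -0.68 to 0.43.

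The change of RIP over RNA with LPS turned to 0.03 for Il1a and 0.03 for Il1rap with no filter, to 0.01 and 0.02 with mitochondrial genes left out, and with replicates 1 and 2 alone to -0.39 for Il18 and 0.01 for Il1rap. With 1 library left out it ran from -1.42 to 0.45 for Il1a, -0.14 to 0.55 for Il1rn, -0.05 to 0.27 for Il18 and -0.28 to 0.13 for Il1rap. The change with TM7nox ran from -0.15 to 0.34 for Il1a, -0.02 to 0.38 for Il1rn and -0.31 to 0.49 for Il33. In RIP, Il1rap with TM7nox turned to 0.02 with replicates 3 and 4 alone.

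Over all genes, the replicate block raised the calls for TM7nox from 1704 to 3091 in RNA and from 2212 to 4577 in RIP, and those for the change of RIP over RNA with LPS from 6 to 50 and with TM7nox from 1 to 2. Of the members, the block changed the calls of Il33 alone, in RIP over RNA (0.65 in LPS and 0.67 in LPS+TM7nox) and against IgG (1.09). With replicates 1 and 2 alone, calls over all genes fell to 1668 from 5190 (RNA, LPS against DMSO), 168 (RNA, TM7nox), 2246 from 5850 (RNA, LPS+TM7nox against DMSO), 3392 from 6090 (RIP, LPS against DMSO), 789 (RIP, TM7nox) and 0 (change with LPS). Replicates 3 and 4 alone gave 3489 (RNA, TM7nox), 1070 (RIP, TM7nox) and 13 (change with LPS). The change with LPS had 66 calls by DESeq2, 49 with no filter and 27 with scaling to total counts, and that with TM7nox had 3, 5 and 2, and 2 with upper quartile scaling. Upper quartile scaling moved the share of RIP calls that were higher than in DMSO to 35.6% (LPS) and 37.1% (LPS+TM7nox).

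Depth limits the DMSO values of Il1a, Il1b and Il33, which rest on 26, 80 and 7 RNA counts, and those of Il18bp, on 42. IgG has 1 library per treatment, all numbered 3.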

Other observations

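The ratio of Il18bp to Il18, counts per base of transcript, was 0.143 ± 0.0991 in DMSO RNA, 0.192 ± 0.0244 in LPS RNA and 0.262 ± 0.107 in LPS+TM7nox RNA (SD, n = 4). In RIP it was 0.709 ± 0.353, 0.203 ± 0.0772 and 0.296 ± 0.0704 in the same order, and in the IgG libraries 0.583, 0.118 and 0.211. In RNA the values of each treatment overlapped those of the others. In RIP the LPS+TM7nox values overlapped those of LPS and of DMSO.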
